A study of Mus musculus with 4 samples.

Results

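The Krüppel-like factors are zinc finger transcription factors that bind GC-rich and CACCC-containing DNA. The 10 genes described here (Klf2, Klf3, Klf4, Klf6, Klf7, Klf9, Klf10, Klf11, Klf12 and Klf13) were taken by name from the 50600 genes of each count table, and all 10 were found. They were measured in mouse regulatory T cells (Tregs) of strain C57BL/6NJ, in 4 RNA-seq libraries, given as replicates 1 to 4, with no treatment or control arm. The labels give neither age nor sex, and they hold 1 donor record for all 4 libraries. It is therefore not known whether the cells came from separate animals. The p-values below take these libraries as their units, and the differences between the libraries may be technical. The sample names inside the files add that the cells were activated and sorted and give a time of 72 h, and a CD4+ T cell differentiation protocol is linked. Whether the cells were taken as Tregs from the animal or made in culture is not said.

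Family members share a DNA-binding domain and differ in what they recruit. Klf2, Klf4, Klf6 and Klf7 are usually described as activators, although Klf4 can also repress. Klf3 and Klf12 recruit the corepressor CtBP, and Klf9, Klf10, Klf11 and Klf13 recruit the SIN3 corepressor. In T cells the family is best known through Klf2, which keeps naive cells quiescent and able to circulate and is lost after T cell receptor stimulation, and through Klf10, an early TGF-beta response gene that can act on the Foxp3 and Tgfb1 promoters.

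The libraries held 32648138 to 94983494 counts, and 13239 to 13351 genes reached 1 TPM (transcript abundance, counts divided by exon length and scaled to the same total in every library) in each. Foxp3, the defining Treg factor, stood at 463 ± 25.4 TPM (SD, n = 4). All 6 T cell and Treg markers reached 1 TPM in every library, led by Il2ra (1769 ± 120.3 TPM), Ctla4 (649 ± 57.2 TPM) and Cd4 (557 ± 21.8 TPM). Ikzf2 was by far the lowest of the 6, at 12.97 ± 1.77 TPM. Of the other cell types in which these genes are known to be high, endothelial markers reached 1 TPM in every library for 1 of 5 genes (Pecam1, which leukocytes also express) with a summed level of 9.03 to 9.84 TPM, and Cdh5 had no count. Myeloid markers reached it for 1 of 7 (Adgre1), with a sum of 1.19 to 3.29 TPM and S100a8 and S100a9 at 0. Erythroid markers did so for 1 of 6 (Hbb-bt, sum 2.23 to 6.11 TPM), B cell markers for 1 of 5 (Cd79b, sum 5.32 to 7.34 TPM), NK markers for 1 of 4 (Eomes, sum 1.58 to 2.71 TPM), CD8 markers for 1 of 2 (Cd8b1, sum 12.6 to 16.6 TPM) and fibroblast markers for 0 of 4 (sum 1.04 to 2.04 TPM). In bulk RNA, fewer cells that express a gene and less RNA per cell cannot be told apart.

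Promoters of 9 of the 10 genes were found in the RefSeq table (build GRCm38.p6; 250 bases before to 50 after the annotated start); Klf10 was not matched. Those of Klf6, the most abundant member, and of Klf2 and Klf4, a closely related pair with very different levels, are shown because they differ in the elements they hold. They are written 5′ to 3′ on the gene's own strand, and capitals mark the CACCC and CCAAT boxes, on either strand, and the MEF2-type element described below; the Klf4 window holds none of these.
Klf6, chr13:5861239-5861538, plus strand: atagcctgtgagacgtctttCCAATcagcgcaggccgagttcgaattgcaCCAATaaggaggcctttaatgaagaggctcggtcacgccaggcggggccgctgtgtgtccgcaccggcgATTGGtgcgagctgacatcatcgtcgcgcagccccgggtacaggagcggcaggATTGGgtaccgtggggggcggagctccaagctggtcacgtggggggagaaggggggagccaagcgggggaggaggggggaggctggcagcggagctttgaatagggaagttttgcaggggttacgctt
Klf2, chr8:72318812-72319111, plus strand: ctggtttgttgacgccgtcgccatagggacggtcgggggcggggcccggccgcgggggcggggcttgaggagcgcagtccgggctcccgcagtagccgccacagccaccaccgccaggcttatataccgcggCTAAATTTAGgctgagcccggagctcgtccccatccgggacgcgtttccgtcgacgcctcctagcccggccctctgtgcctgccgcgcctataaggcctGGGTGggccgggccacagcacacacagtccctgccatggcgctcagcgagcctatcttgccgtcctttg
Klf4, chr4:55532426-55532725, minus strand: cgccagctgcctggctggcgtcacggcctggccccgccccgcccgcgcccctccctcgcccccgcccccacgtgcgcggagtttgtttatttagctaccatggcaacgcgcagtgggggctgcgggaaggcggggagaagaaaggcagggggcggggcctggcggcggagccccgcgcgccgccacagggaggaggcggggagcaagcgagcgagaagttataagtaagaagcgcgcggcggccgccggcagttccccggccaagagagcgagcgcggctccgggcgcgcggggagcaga

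In all, 7 motifs were searched on both strands, counting overlapping matches. The Klf2 window held CTA, any 4 bases, TAG, a loose form of the core of sites for MEF2 factors. Its first base lay 118 bases before the start. In the MEF2 core the 4 middle bases are A or T, as in the Klf2 match, but the search left them free. Klf2 was the only 1 of the 9 members with the loose form. It is held by 3.69% of all 32851 promoters in the table, and the share with A or T in the middle was not counted. The CACCC box, to which Krüppel-like factors themselves bind, was present in 6 of 9 members (Klf2, Klf3, Klf7, Klf9, Klf12 and Klf13) and in 57.5% of all promoters. The GC box GGGCGG was present in 7 of 9, all but Klf9 and Klf12, and in 35.7% of all promoters. The CCAAT box was present in 4 of 9 members (Klf6, Klf9, Klf11 and Klf13), with 4 matches in Klf6, and in 37.4% of all promoters. The forkhead-type element TGTTTAC was found in Klf9 (3.65% of all promoters), TATAAA in Klf12 (13.6%) and the cyclic AMP response element TGACGTCA in no member (1.79%). Of 47 matches in the members, 2 pairs of different motifs overlapped. GC content was 45.7% in the Klf12 window and 58.3% to 77.7% in the other 8, against a median of 52.7% over all promoters. These letters are matches in fixed windows and no binding was measured.

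Klf6 and Klf13 were the most abundant of the 10 genes, and 9 of the 10 reached 1 TPM in every library, all but Klf12. Among nuclear protein-coding genes 49.1% did so. The 10 genes summed to 305, 348, 313 and 297 TPM in replicates 1 to 4. Klf6, Klf13 and Klf10 made up 75.8 ± 0.364% of that sum (SD, n = 4). The median member stood at 15.4 TPM, against 1.21 TPM over all nuclear protein-coding genes and 30.9 TPM over those expressed in every library. The 10 genes were chosen with earlier results of these data known, so these values are descriptions with no test. Of the 7 other KLF genes found, 2 reached 1 TPM in every library.

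**Figure D1:**
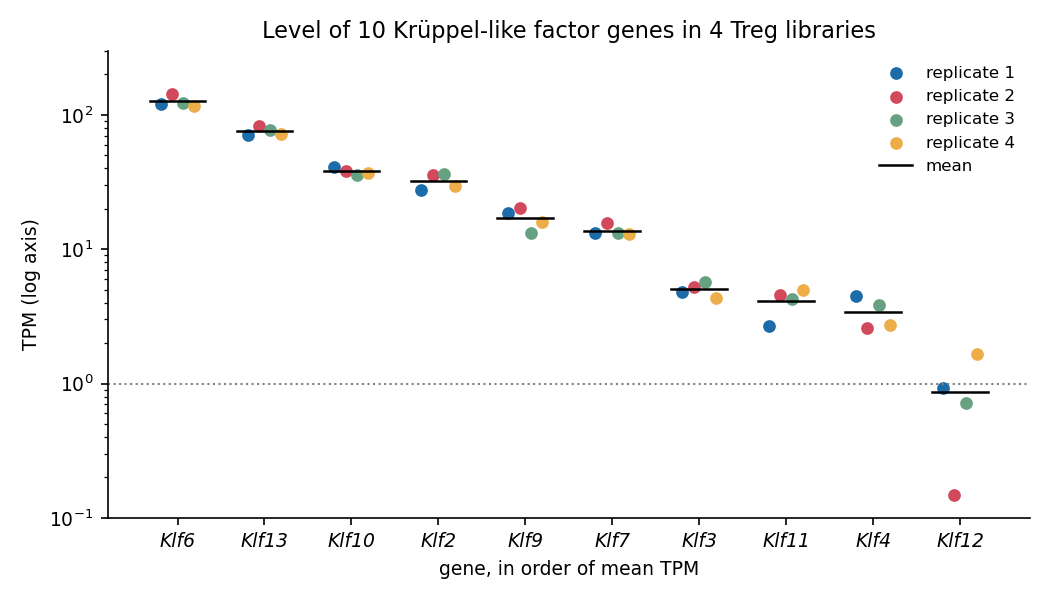
Level of each of the 10 genes in TPM (log axis) in each of 4 Treg libraries; points are libraries, black lines are means over the 4 libraries and the dotted line is 1 TPM. Klf6 lies highest in every library, at 116 to 144 TPM, and Klf12 lowest, with its 4 libraries between 0.148 and 1.66 TPM.

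Among the activators, Klf6 was the most abundant. Klf6, an early-response factor and tumour suppressor candidate, stood at 120.7, 144, 123 and 116 TPM in replicates 1 to 4, or 126 ± 12.2 TPM (SD, n = 4). Replicate 2 was highest and the other 3 lay close together. Klf6 (ENSMUSG00000000078.6) lies on chromosome 13 at 5861489 to 5870393 in mm10, on the plus strand. It exceeded 86.3% of the protein-coding genes expressed in every library.

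Klf2, the quiescence and migration factor, was present at a moderate level. It measured 27.6, 35.5, 36.5 and 29.5 TPM in replicates 1 to 4, or 32.3 ± 4.34 TPM (SD, n = 4), and exceeded 51.3% of the expressed protein-coding genes. Replicates 2 and 3 were the higher 2 libraries. Klf2 (ENSMUSG00000055148.7, chromosome 8, 72319033 to 72321656, plus strand) rested on 548 to 1987 counts.

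Klf7, best known from neuronal development, measured 13.2, 15.6, 13.1 and 13.01 TPM, or 13.7 ± 1.25 TPM (SD, n = 4). Replicate 2 stood above 3 nearly equal libraries, as it did for Klf6. Klf7 (ENSMUSG00000025959.13) lies on chromosome 1 at 64029447 to 64122282, on the minus strand.

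Klf4, a reprogramming factor that restrains the cycling of naive CD8+ T cells, was low. It measured 4.49, 2.59, 3.81 and 2.71 TPM, or 3.40 ± 0.908 TPM (SD, n = 4), from 198, 173, 343 and 83 counts. Replicates 1 and 3 were high and replicates 2 and 4 low. Their exact 95% Poisson intervals on the counts were 3.88 to 5.16 and 3.42 to 4.24 TPM for replicates 1 and 3, and 2.22 to 3.01 and 2.16 to 3.36 TPM for replicates 2 and 4. These intervals cover counting error only, since the reads carry no molecular identifiers in the sources used here. Klf4 (ENSMUSG00000003032.8) lies on chromosome 4 at 55527143 to 55532466, on the minus strand.

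Of the 4 SIN3-recruiting genes among the 10, Klf13 was the most abundant. Klf13, which in human T cells activates the chemokine gene CCL5 late after stimulation, measured 70.6, 82.3, 77.3 and 72.4 TPM, or 75.6 ± 5.26 TPM (SD, n = 4). It exceeded 75.9% of the expressed protein-coding genes, while Ccl5 itself stood at 5.95 ± 1.72 TPM (SD, n = 4). Klf13 (ENSMUSG00000052040.10) lies on chromosome 7 at 63886351 to 63938915, on the minus strand. Without correction for length the order at the top was the other way: Klf13 averaged 175.9 CPM (counts scaled by the library total alone) and Klf6 163.7 CPM, because the annotated exons of Klf13 are 7531 bp long and those of Klf6 4217 bp.

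Klf10, the TGF-beta inducible member, had the lowest coefficient of variation of the 10 genes in TPM. It measured 40.7, 38.2, 35.9 and 36.6 TPM, or 37.9 ± 2.14 TPM (SD, n = 4), which is 5.64% of the mean. Replicate 1 was highest. Klf10 (ENSMUSG00000037465.9) lies on chromosome 15 at 38294413 to 38300707, on the minus strand.

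Klf9, which responds to glucocorticoid and thyroid hormone in several tissues, measured 18.7, 20.2, 13.3 and 15.9 TPM, or 17.0 ± 3.07 TPM (SD, n = 4). Replicates 1 and 2 were high and replicate 3 lowest. Klf9 (ENSMUSG00000033863.1) lies on chromosome 19 at 23141226 to 23166911, on the plus strand.

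Klf11, the closest relative of Klf10, was low in replicate 1. It measured 2.70, 4.55, 4.29 and 4.97 TPM, or 4.13 ± 0.994 TPM (SD, n = 4), from 165, 421, 535 and 211 counts. The exact 95% Poisson interval was 2.30 to 3.14 TPM in replicate 1, and the lowest bound in the other 3 libraries was 3.93 TPM. Klf11 (ENSMUSG00000020653.11) lies on chromosome 12 at 24651371 to 24662774, on the plus strand.

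Both CtBP-recruiting members were low. Klf3, a repressor studied in erythroid and B cells, measured 4.84, 5.21, 5.67 and 4.36 TPM, or 5.02 ± 0.553 TPM (SD, n = 4). Replicate 3 was highest and replicate 4 lowest. Its annotated exons add up to 11243 bp, the longest of the family, and its 17.4 CPM were close to the 18.4 CPM of Klf2. Klf3 (ENSMUSG00000029178.14) lies on chromosome 5 at 64803388 to 64832901, on the plus strand.

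Klf12, a repressor first described on the AP-2alpha gene, was the only member that did not reach 1 TPM in every library. It measured 0.930, 0.148, 0.712 and 1.66 TPM from 25, 6, 39 and 31 counts, with exact 95% Poisson intervals of 0.602 to 1.37, 0.0542 to 0.322, 0.506 to 0.973 and 1.13 to 2.36 TPM. Replicate 4, the shallowest library, was highest, and replicate 2 lay below the other 3 with no overlap of its interval. A floor of 3 counts corresponds to 0.0548 to 0.161 TPM for this gene, so 6 counts lie near it. Klf12 (ENSMUSG00000072294.4) lies on chromosome 14 at 99874486 to 100149764, on the minus strand. The annotation used for counting gives it 1856 bp of exons, whereas GENCODE M21 gives 6985 bp, and reads in the added exons were not counted.

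In order of mean TPM the genes ran Klf6, Klf13, Klf10, Klf2, Klf9, Klf7, Klf3, Klf11, Klf4 and Klf12. Neighbours were compared within each library on log2(TPM + 1). In 6 of the 9 neighbouring pairs the higher gene was higher in 4 of 4 libraries. Klf10 exceeded Klf2 by 0.23 ± 0.25 (SD, n = 4) and in 3 of 4 libraries, Klf3 exceeded Klf11 by 0.25 ± 0.34 and in 3 of 4, and Klf11 exceeded Klf4 by 0.22 ± 0.58 and in 3 of 4, so these neighbours did not differ beyond their spread. The order was read from the same values and has no test. Levels of different genes also carry differences in annotated length: exons that the cells do not use lower a gene's TPM. Besides Klf12, the exons of some other members are longer in GENCODE M21 than in the annotation used for counting. Those of Klf9 go from 3263 to 4815 bp and those of Klf10 from 3045 to 4179 bp. The gain is small for Klf6 (4217 to 4391 bp) and Klf11 (4228 to 4340 bp). All of these genes enter this order and the pairs below.

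The family holds closely related pairs, and in each of 5 such pairs 1 gene was well above the other. The differences are of log2(TPM + 1) within a library, and signs were flipped over the 4 libraries for an exact permutation test, two-sided. Klf2 exceeded Klf4 by 2.93 ± 0.40, at means of 32.3 and 3.40 TPM. Klf6 exceeded Klf7 by 3.10 ± 0.03, at 126 and 13.7 TPM, with the smallest spread of the 5 pairs. Klf10 exceeded Klf11 by 2.94 ± 0.38, at 37.9 and 4.13 TPM.

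Klf3 exceeded Klf12 by 1.75 ± 0.60, at means of 5.02 and 0.863 TPM. Klf9 minus Klf13 was -2.10 ± 0.26, at 17.0 and 75.6 TPM (SD, n = 4 throughout). Every difference had the same sign in 4 of 4 libraries, each with an exact permutation p of 0.13 before and after adjustment over the 5 pairs, which is the smallest that 4 libraries allow, so the test could not pass 0.05. The size of the Klf3 and Klf12 difference depended on the scale, being 2.71 ± 1.29 with a pseudocount of 0.1 and 3.65 ± 0.46 in CPM, and Klf9 minus Klf13 was -3.30 ± 0.26 in CPM.

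**Figure D2:**
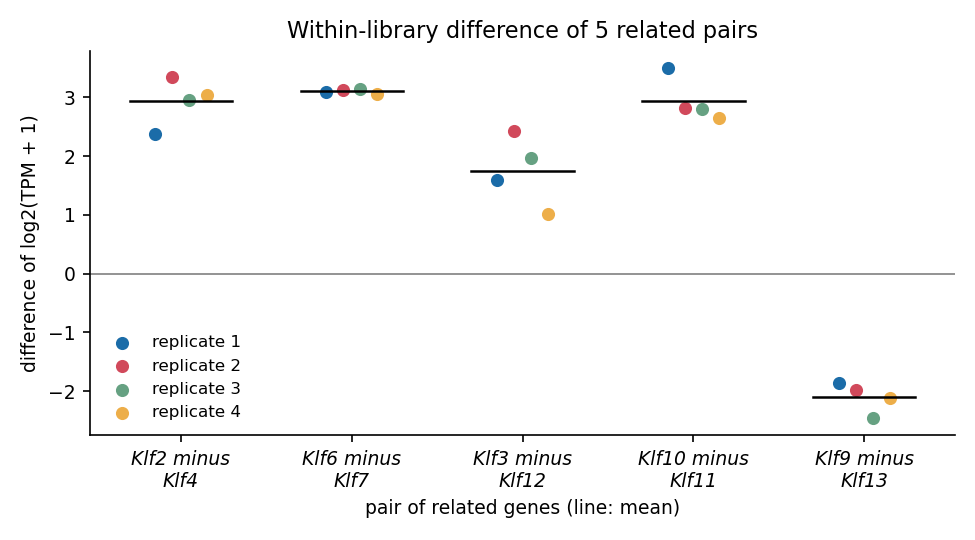
Difference of log2(TPM + 1) between the first and the second gene of 5 related pairs, in each of 4 libraries (points) with the mean (line). Klf6 minus Klf7 is nearly the same in the 4 libraries, at 3.06 to 3.14, whereas Klf3 minus Klf12 runs between 1.01 and 2.44.

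Other genes of the same superfamily were set beside the 10. Of 8 further KLF genes, 7 were found in the files and 2 reached 1 TPM in every library. Klf16, another SIN3-recruiting member, stood at 78.6 ± 4.93 TPM (SD, n = 4), next to Klf13 at 75.6 TPM, and X-linked Klf8, a CtBP-recruiting member, at 2.75 ± 0.630 TPM. Klf1, the erythroid factor, averaged 0.608 TPM with no count in replicate 4, Klf5 averaged 0.501 TPM with no count in replicate 1, and Klf14, Klf15 and Klf17 had no count in any library. All KLF genes found summed to 398 ± 26.4 TPM, of which the 10 genes gave 316 ± 22.4 TPM (SD, n = 4).

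The SP factors, which bind the same GC-rich sites, reached 1 TPM in every library for 5 of 9 genes. Sp1 stood at 60.9 ± 4.65, Sp3 at 59.0 ± 7.06 and Sp2 at 41.0 ± 2.68 TPM (SD, n = 4), all between the means of Klf13 and Klf10. Their sum over the 9 genes was 166 to 184 TPM, against 297 to 348 TPM for the 10 KLF genes.

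**Figure D3:**
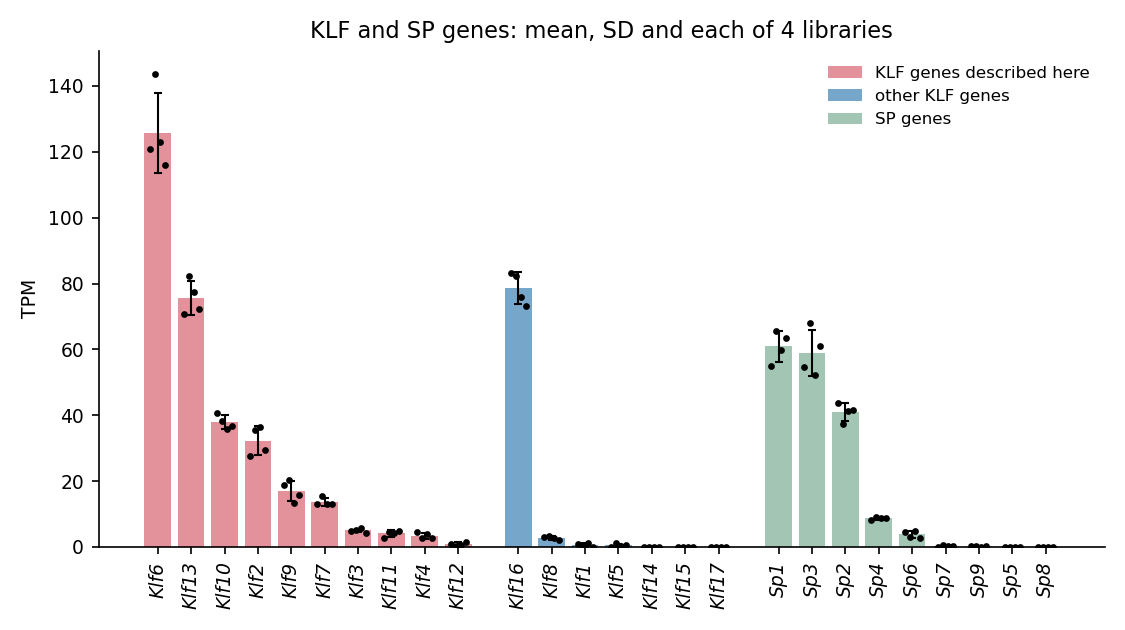
Mean level in TPM (bars) with SD (error bars) and the value of each of 4 libraries (points) for the 10 KLF genes described here, the other 7 KLF genes found and 9 SP genes. Klf6 at 126 TPM is the highest bar, followed by Klf16 at 78.6 and Klf13 at 75.6 TPM.

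Variation between libraries was tested for every gene with edgeR's goodness-of-fit test, which asks whether a gene varies more than genes of its abundance. Of 13478 genes tested, 51 (0.378%) were called at an adjusted p under 0.05. Klf12 fell below the filter on low counts, and 0 of the 9 members tested were called, also at an unadjusted p under 0.05. DESeq2's trend and limma also called 0 of 9. The lowest p of the 9 was that of Klf9 (edgeR adjusted p = 0.942), whose log2 CPM ranged over 0.54.

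The median range of the 9 members over the 4 libraries was 0.38 (log2 CPM), against 0.31 over all genes tested. Set against bins of genes of similar abundance, 6 of 9 members had a range above their bin's median (Klf2, Klf3, Klf4, Klf6, Klf9 and Klf11) and 0 of 9 above its highest 5%. Klf4, at 0.86, and Klf11, at 0.84, had the widest ranges and were also the least abundant of the 9. Klf13 had the narrowest range, 0.15, followed by Klf10 at 0.20.

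**Figure D4:**
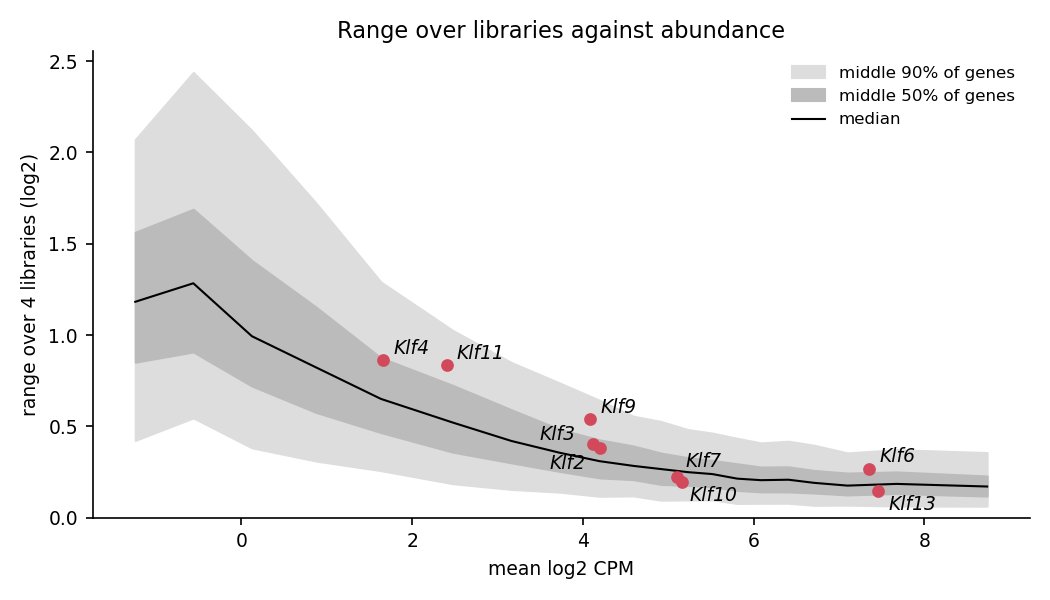
Range over 4 libraries (highest minus lowest log2 CPM) against mean log2 CPM; the black line is the median of 20 abundance bins of all genes tested, the dark band runs from the 25th to the 75th percentile and the light band from the 5th to the 95th. The 9 members tested (red) lie inside the light band, with Klf6, Klf9 and Klf11 above the dark band.

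No library was highest or lowest for most of the 10 genes, although their summed TPM was highest in replicate 2, at 348 TPM. In TPM, replicate 2 was highest for 4 of the 10 genes and the other 3 libraries for 2 each, and replicates 1 and 4 were lowest for 3 each and replicates 2 and 3 for 2 each. Over all genes expressed in every library, replicate 2 was highest for 39.9% and replicate 1 lowest for 36.8%. Relative to the gene's mean log2 CPM, replicate 1 was at 0.47 for Klf4 and 0.14 for Klf10, but at -0.54 for Klf11 and -0.18 for Klf2. Replicate 3 was at 0.20 for both Klf2 and Klf3 and at -0.32 for Klf9. Replicate 1 also stood apart in non-coding RNA, with ribosomal RNA and the locus Gm42418 at 0.735% of counts against 0.156% to 0.297% in the others. Gm42418 and the non-coding RNAs Malat1 and Rn7sk, listed to show library quality, were all called as varying by edgeR (adjusted p = 7.88e-38, 1.30e-38 and 2.45e-10), each highest in replicate 1. The part of this difference in the values of Klf4 and Klf11 was not tested.

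**Figure D5:**
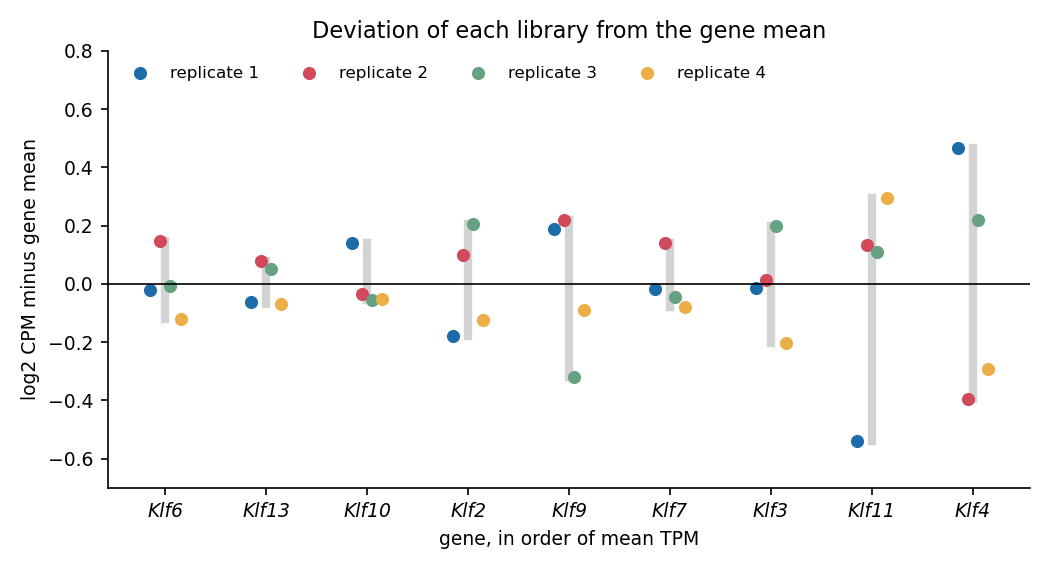
Deviation of each of 4 libraries (points) from the gene's mean log2 CPM for the 9 members tested, in order of mean TPM; grey bars span the range. Klf11 and Klf4 spread widest; replicate 1 is lowest for Klf11 (-0.54) and highest for Klf4 (0.47).

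The genes whose centred log2 CPM lay nearest to that of Klf4, which had the widest range of log2 CPM among the 9 members tested, were Samd11, Snrpert and Dok3, with root mean square differences of 0.025, 0.037 and 0.040 over 4 libraries, and 8 of 13447 genes lay within 0.05. Nearest to Klf6, the most abundant member, were Sestd1, Wdr92 and Rab27a, at 0.0055, 0.0071 and 0.0075, and 305 genes lay within 0.05. For both members these are the smallest of 13447 distances over 4 libraries, where close matches can arise by chance. Shared regulation was not tested.

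Most of the listed genes known to act upstream, beside or downstream of the family reached 1 TPM in every library. Among nuclear protein-coding genes 49.1% did so. The lists were chosen with earlier results of these data known, so the counts of expressed genes below are descriptions with no test. In 6 lists with 51 distinct genes, 49 were tested and 0 were called as varying by edgeR, by the same test as the members, with 7 of 49 at an unadjusted p under 0.05, against 805 of 13478 over all genes tested. Of 11 genes upstream of Klf2, 9 reached 1 TPM in every library. The kinases Map2k5 and Mapk7, which induce Klf2 through MEF2 factors in endothelial cells, stood at 38.4 ± 2.73 and 27.3 ± 0.451 TPM (SD, n = 4). Mef2d stood at 76.0 ± 5.54 TPM and Mef2a at 8.55 ± 1.10 TPM, whereas Mef2c averaged 0.00753 TPM and Mef2b had counts only in replicate 1. Foxo1 and Foxo3, which act on Klf2 in T cells, were at 62.3 ± 4.82 and 44.7 ± 5.38 TPM.

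All 9 genes of the Klf2 target and migration list reached 1 TPM in every library. The chemokine receptor Ccr7 (631 ± 78.3 TPM), the integrin chain Itgb7 (181 ± 13.01 TPM) and the sphingosine phosphate receptor S1pr4 (60.1 ± 8.22 TPM) were highest. S1pr1, the receptor for lymph node exit that Klf2 activates, stood at 45.4 ± 3.83 TPM.

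Cofactors of both repressor groups were present. Of 11 partner genes, 10 reached 1 TPM in every library, led by Ctbp1 (175 ± 6.52 TPM), Hdac1 (156 ± 6.74 TPM) and Hdac3 (92.2 ± 4.54 TPM). The SIN3 genes Sin3a and Sin3b stood at 76.3 ± 4.03 and 61.3 ± 3.40 TPM (SD, n = 4). The exception was Ctbp2, at 0.722 ± 0.252 TPM.

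All 10 genes of the TGF-beta and Klf10 list reached 1 TPM in every library, led by Foxp3, Tgfb1 (335 ± 10.3 TPM) and the receptor gene Tgfbr1 (96.9 ± 8.38 TPM). Itch, the ubiquitin ligase that acts on Klf10, stood at 21.7 ± 2.00 TPM. Of the 9 quiescence genes, 8 reached 1 TPM in every library, led by Cdkn1a (517 ± 12.8 TPM), Slfn2 (173 ± 25.1 TPM) and Btg1 (136 ± 16.2 TPM), with Cdkn1c at 0.899 ± 0.414 TPM.

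The 3′ untranslated regions were long in most members, but not in Klf2 (737 bases) and Klf4 (982 bases). The median length over the 10 members in GENCODE M21 was 3166 bases, taking the longest per gene, against 1149 bases over 10633 expressed protein-coding genes. The AU-rich heptamer TATTTAT, which is found in many short-lived mRNAs, occurred in 5 of 10 members (Klf2, Klf6, Klf7, Klf10 and Klf11) and in 30.2% of those genes. Per length it was less frequent in the members, at 0.190 per kb, than in the expressed genes, at 0.289 per kb. The highest density was that of Klf2, with 1 match in 737 bases.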

How the data were processed

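RNA was sequenced in 4 libraries of 1 group. The authors deposited raw counts, as whole read pairs per gene, from STAR alignments counted by featureCounts 1.4.6-p4 (GENCODE M13, strand setting 2), per the file headers; the labels name mm10. Multimapping reads and reads on exons of several genes were not counted by these settings. No member shares exon bases with a same-strand gene. The assay is titled total RNA-seq, while the library protocol carries poly(A)+ in its name.

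Gene names came from GENCODE M21 (50376 of 50600 identifiers), and promoters from RefSeq. TPM used the exon lengths in the files. Variation was tested with edgeR 4.0.16 under R 4.3.3. Genes passed filterByExpr at a count minimum of 10, libraries were scaled by TMM, and each gene's deviance under an intercept-only model was set against the trended dispersion, upper tail, with Benjamini-Hochberg adjustment; the script was tested on simulated data. Log2 CPM used a prior count of 2. limma 3.58.1 and DESeq2 1.42.0 were alternatives. The members, lists and pairs were chosen with earlier results of these data known. All 10 members are named; of other lists, the 3 highest, genes named for their role and any called, except that for the lists of other cell types the genes at 1 TPM in every library and some at 0 are named. Other genes named beyond these were chosen after their values were seen. No protein sequences were used here. Values of 1 gene of the Klf2 target list are not reported here. Chi-square per gene was 11.8 or more in every pair of libraries, so all 4 were kept as separate samples.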

Additional observations from a re-analysis of the deposited data

Results flagged for a closer look

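Of 11 values examined (the TPM of each of the 10 genes and their sum), 1 was picked out because Dixon's criterion set a single library apart from the rest; chance picks out about 1 in 20 groups. It was Klf7 in replicate 2, at 15.6 TPM against 13.01 to 13.2 TPM in the other libraries. The gap was 0.930 of the range. edgeR's test did not call Klf7 (adjusted p = 0.9999), and 4 of the 10 genes were highest in that library.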

How the results depend on the processing

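The call of variation did not change for any of the 9 members under any of 10 alternatives: DESeq2 size factors, library totals, both other filters, limma, DESeq2's trend, and each library left out. The count over all genes moved from 51 to 15 with limma and to between 17 and 56 with a library left out (17 without replicate 1, 23 without replicate 3, 33 without replicate 4); the cause was not tested. All 5 pair differences kept their sign under 7 alternatives each. Only CPM without length correction could have changed a sign. The other alternatives keep the order of the genes within a library, and that order was the same in every library. Of 70 recomputed mean levels 68 moved by less than 1 SD; over protein-coding genes alone Klf10 was at 41.3 and Klf13 at 82.4 TPM. At 0.5 TPM 9 members, and at 5 TPM 6 members, were expressed in every library. Depth limits Klf12, with 6 to 39 counts, most. No pairing of samples between groups was possible because there is 1 group.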
